A study of Mus musculus with 10 samples.

Results

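The immunoproteasome and the machinery that loads peptides onto major histocompatibility complex (MHC) class I molecules were followed through 10 genes in tumour-infiltrating CD8 T cells. The genes were taken by name: Psmb8, Psmb9, Psmb10, Psme1, Psme2, Tap1, Tap2, Tapbp, B2m and Nlrc5. They are 10 of 54408 annotated genes, and all 10 were among the 13081 genes with enough counts to be tested. The list was drawn up with results of the same genotype comparison in view, so members were chosen by their counts in NFAT5 KO against WT libraries. The genotype values of these 10 genes are a description and not independent evidence.

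P14 cells, CD8 T cells whose transgenic receptor recognises the gp33 peptide, were of C57BL/6 background and carried floxed Nfat5 alleles in both groups. NFAT5 KO cells also carried 1 copy of Cre recombinase under the Cd4 promoter, which is active from T-cell development onwards, and WT cells carried floxed alleles without Cre. All cells were activated in vitro for 48 hours and transferred into mice with subcutaneous B16-gp33 melanoma, a mouse melanoma line that expresses gp33. They were sorted from the tumours 7 days later, giving 5 NFAT5 KO and 5 WT libraries. NFAT5 is a transcription factor of the Rel family known for the response to high salt.

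Cells cut proteins into peptides with the proteasome. Interferon gamma exchanges its 3 catalytic subunits for Psmb8, Psmb9 and Psmb10, which gives the immunoproteasome, and induces the PA28 activator made of Psme1 and Psme2. The peptides cross into the endoplasmic reticulum through the transporter of Tap1 and Tap2, and tapasin, the product of Tapbp, holds empty class I molecules at that transporter. B2m is the light chain of every class I molecule, and Nlrc5 is a transactivator of class I genes. Lymphocytes express the immunoproteasome without further stimulation.

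The start regions of 5 members are shown. Psmb8, Psmb9 and Psmb10 had the lowest ratios of NFAT5 KO over WT, Tap1 shares its start region with Psmb9, and B2m held the most of the motifs searched. Psmb9 and Tap1 are transcribed away from each other from a shared stretch on chromosome 17, the RefSeq starts of GRCm38.p6 having 225 bases between them. That stretch is chr17:34187331-34187555, read on the plus strand, the direction of Tap1. In the GENCODE M21 annotation used for the counts, Psmb9 extends to 34187764 and Tap1 starts at 34187553. By that annotation the stretch lies within the Psmb9 gene, so it is upstream of both genes by the RefSeq starts only. The others are the 250 bases before the RefSeq start, at chr17:34197945-34198194 on the plus strand for Psmb8, chr8:105938393-105938642 on the minus strand for Psmb10, and chr2:122147437-122147686 on the plus strand for B2m. Capitals mark matches to the motifs searched.
Psmb9-Tap1: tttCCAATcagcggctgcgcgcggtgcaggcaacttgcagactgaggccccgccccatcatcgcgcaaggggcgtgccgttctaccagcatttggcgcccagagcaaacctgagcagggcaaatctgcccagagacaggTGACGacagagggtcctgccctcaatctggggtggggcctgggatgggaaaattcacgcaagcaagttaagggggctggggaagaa
Psmb8: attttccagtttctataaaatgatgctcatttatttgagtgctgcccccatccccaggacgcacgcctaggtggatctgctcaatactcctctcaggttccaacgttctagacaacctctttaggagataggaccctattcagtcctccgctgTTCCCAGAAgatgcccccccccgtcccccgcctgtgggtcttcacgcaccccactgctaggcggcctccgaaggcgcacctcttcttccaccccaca
Psmb10: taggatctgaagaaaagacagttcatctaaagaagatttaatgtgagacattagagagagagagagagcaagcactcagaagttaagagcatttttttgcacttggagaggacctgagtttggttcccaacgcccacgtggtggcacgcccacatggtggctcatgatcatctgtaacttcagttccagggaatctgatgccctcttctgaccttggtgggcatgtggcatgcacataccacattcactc
B2m: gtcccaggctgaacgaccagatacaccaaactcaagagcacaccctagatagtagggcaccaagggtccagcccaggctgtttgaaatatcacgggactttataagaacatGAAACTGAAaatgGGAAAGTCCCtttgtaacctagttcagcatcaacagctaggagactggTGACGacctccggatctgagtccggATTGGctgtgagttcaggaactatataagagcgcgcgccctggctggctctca

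RefSeq windows of 250 bases before to 50 bases after a start were found for 8 of the 10 members, Tap2 and Nlrc5 having no entry in the table. Motifs were searched on both strands, and each share below is of all 32851 windows. The core of the interferon response element, GAAANNGAA, was present in 8.56% of windows and in those of Psme1 and B2m. The gamma-activated sequence TTCNNNGAA was present in 8.30% of windows and in that of Psmb8. The core of the cyclic AMP response element, TGACG, was present in 20.8% of windows and in those of Psmb9, Psme2, Tap1 and B2m. The CCAAT box was present in 37.4% of windows and in those of Psmb9, Tap1, Tapbp and B2m. One TGACG and 1 CCAAT lie inside the shared stretch, so they count for both Psmb9 and Tap1. The kappaB element was present in 11.2% of windows and in that of B2m, where it lies 126 bases before the start, 4 bases past the interferon response core. The tonicity element, the motif bound by NFAT5, was present in 4.96% of windows and in none of the 8 member windows. The Psmb10 stretch holds none of the motifs searched.

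Libraries held 22444310 to 32001285 estimated counts, and no pair of libraries was identical. For Nfat5, counts scaled to library size (CPM) were 12.2 in 678_3, 12.6 in 678_5, 11.6 in 678_6, 26.8 in 679_2 and 11.9 in 679_6 of NFAT5 KO cells, against 18.0 in 678_2, 17.2 in 678_4, 18.3 in 679_3, 9.20 in 679_4 and 14.2 in 679_5 of WT cells. The library labelled NFAT5 KO 679_2 was the highest of the 10 and the library labelled WT 679_4 the lowest. Counts over the whole gene do not isolate the deleted part, so they do not check the labels. Values below follow this library order, and genotypes are compared as the log2 ratio of NFAT5 KO over WT, the fold change on a log scale. The labels do not say whether libraries came from separate mice, so p-values rest on the spread among these libraries, which may be technical.

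The clearest difference among the 10 genes lay in the catalytic core. Psmb9 and Psmb10 were lower in NFAT5 KO cells and passed the test, Psmb8 was also lower on average but did not pass, and the 7 other members did not pass in either direction. Of the 10 members, 0 were called higher and 2 lower by edgeR's quasi-likelihood test at an adjusted p below 0.05. Over all 13081 genes the same test called 9.01%, with 3.38% higher and 5.63% lower in NFAT5 KO cells. The median log2 ratio was 0.08 over the 10 members and 0.02 over all genes tested. At an unadjusted p below 0.05 the test called 3041 genes. How many of all genes tested separate the groups without overlap was not counted, so full separation of a member is a description only.

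**Figure D1:**
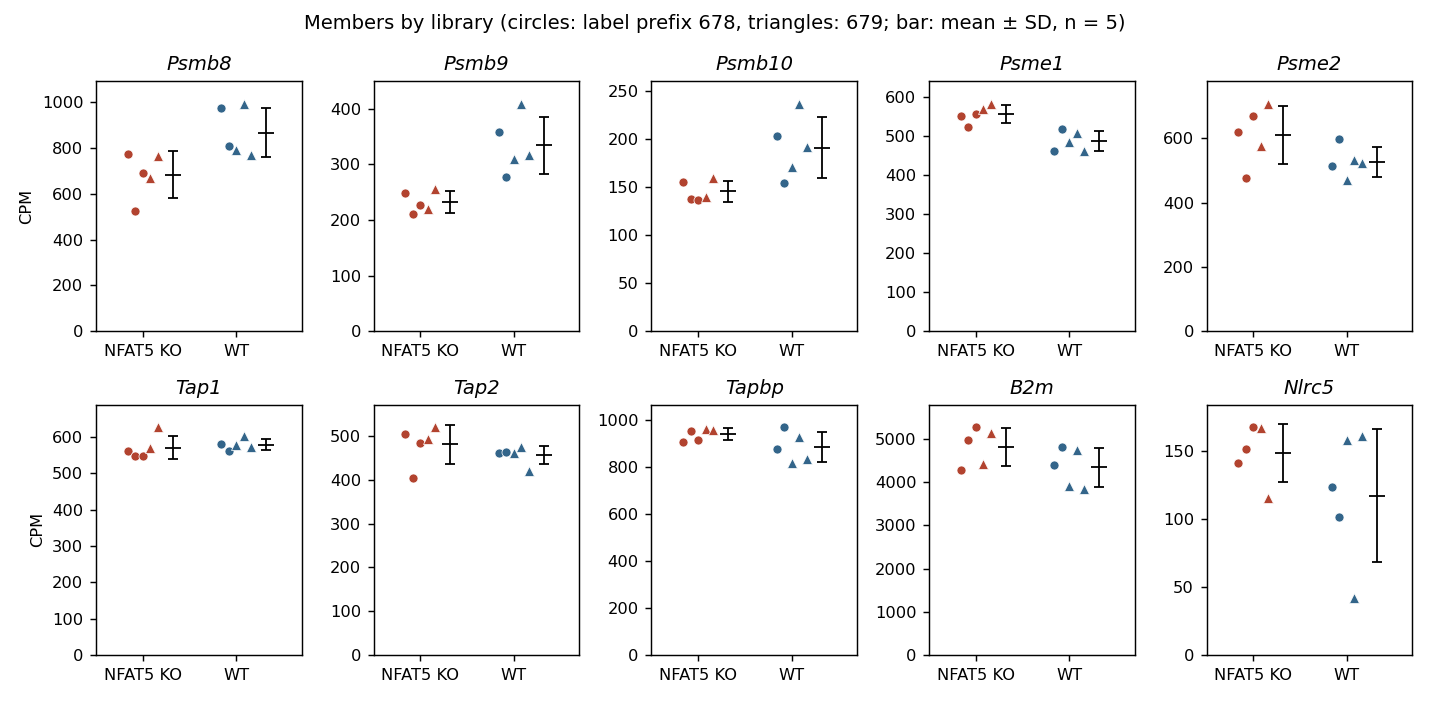
Level of each of the 10 genes in CPM in each library, NFAT5 KO in red at the left and WT in blue at the right, with circles and triangles for the label prefixes 678 and 679 and a bar for the mean ± SD (n = 5). Psmb9 points of NFAT5 KO cells all lie below those of WT cells, Psme1 points all lie above, and the other 8 genes overlap. The share of all genes tested that separate in this way was not counted.

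Psmb9, the immunoproteasome subunit that replaces Psmb6 (ENSMUSG00000096727, chromosome 17, 34181987 to 34187764 on the minus strand of GRCm38), gave the largest fold change among the members. Its levels were 249, 211, 226, 219 and 256 CPM in NFAT5 KO libraries, against 358, 277.5, 309, 409 and 317 CPM in WT libraries. Every NFAT5 KO library lay below every WT library, and WT 679_4 was the highest. The log2 ratio was -0.52 (adjusted p = 0.00819 by edgeR, SE 0.11), a level 0.695 times that of WT. Leaving out any 1 library kept the call, in 10 of 10 fits, at log2 ratios from -0.60 to -0.45.

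Psmb10, the subunit that replaces Psmb7 (ENSMUSG00000031897, chromosome 8, 105935735 to 105938444 on the minus strand), had 155, 138, 136, 139.5 and 159 CPM in NFAT5 KO libraries, against 203, 154, 170.4, 236.5 and 191 CPM in WT libraries. The groups overlapped through WT 678_4, which lay between the NFAT5 KO libraries. The log2 ratio was -0.39 (adjusted p = 0.0463 by edgeR, SE 0.11). The call held in 2 of the 10 fits that left out a library, and the adjusted p reached 0.117 without WT 678_2. With the label prefix as a term it was 0.0815, at a log2 ratio of -0.37.

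Psmb8, the subunit that replaces Psmb5 (ENSMUSG00000024338, chromosome 17, 34197721 to 34201454 on the plus strand), is the most abundant of the 3. It had 776.5, 524, 691, 669 and 765 CPM in NFAT5 KO libraries, against 976, 809.7, 794, 994 and 769 CPM in WT libraries. NFAT5 KO 678_5 was the lowest of the 10, and WT 679_5 lay within the NFAT5 KO range. The log2 ratio was -0.34 (adjusted p = 0.0875 by edgeR, SE 0.12), and it did not pass in any fit that left out a library. Per transcript length, in the deposited length-scaled unit TPM, the groups did not overlap, at 874 ± 90.9 TPM in NFAT5 KO cells and 1103 ± 107 TPM in WT cells (SD, n = 5 each).

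The standard subunits that these 3 replace were also lower on average, and none of the 3 passed. Psmb6 stood at 232 ± 34.7 CPM in NFAT5 KO cells and 266 ± 35.0 CPM in WT cells, and Psmb7 at 110.0 ± 9.83 and 127 ± 9.96 CPM in NFAT5 KO and WT cells (SD, n = 5 each). Their log2 ratios were -0.19 (adjusted p = 0.353) and -0.21 (adjusted p = 0.181, edgeR). Psmb5 had a log2 ratio of -0.14 (adjusted p = 0.446, edgeR). NFAT5 KO 678_5 was the lowest of the 10 libraries for all 3, and without it the list median was -0.15, against -0.19 with it.

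The share of immunoproteasome RNA in the catalytic subunits was computed per library from TPM, since lengths differ between genes. Psmb9 made up 39.5, 44.5, 43.4, 42.9 and 42.1% of Psmb9 plus Psmb6 in NFAT5 KO libraries, against 44.6, 45.1, 48.6, 54.8 and 47.4% in WT libraries. No NFAT5 KO library reached the lowest WT library, but NFAT5 KO 678_5 and WT 678_2 were nearly level. The share of Psmb8 in Psmb8 plus Psmb5 was 72.3 ± 0.976% in NFAT5 KO cells and 75.0 ± 2.25% in WT cells, and that of Psmb10 in Psmb10 plus Psmb7 was 67.5 ± 1.45% in NFAT5 KO cells and 69.0 ± 4.15% in WT cells (SD, n = 5 each). Both of these overlapped between the groups. Retained-intron transcripts made up 53.5% of Psmb10 TPM in NFAT5 KO cells and 49.55% in WT cells. For Psmb7 they made up 1.53% and 1.43%. With the most abundant transcript of each gene alone, the Psmb10 share was 44.2 ± 1.39% in NFAT5 KO cells. In WT cells it was then 48.6 ± 2.82% (SD, n = 5 each), and the groups still overlapped. The Psmb10 share thus depends on the transcripts summed. For all 3 pairs together the share was 62.2, 62.6, 63.3, 63.2 and 63.0% in NFAT5 KO libraries, against 65.6, 63.0, 67.1, 69.9 and 64.2% in WT libraries, and the groups overlapped through WT 678_4. The SD was 0.449 percentage points in NFAT5 KO cells and 2.67 in WT cells, so the spread lay mostly among WT libraries.

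**Figure D2:**
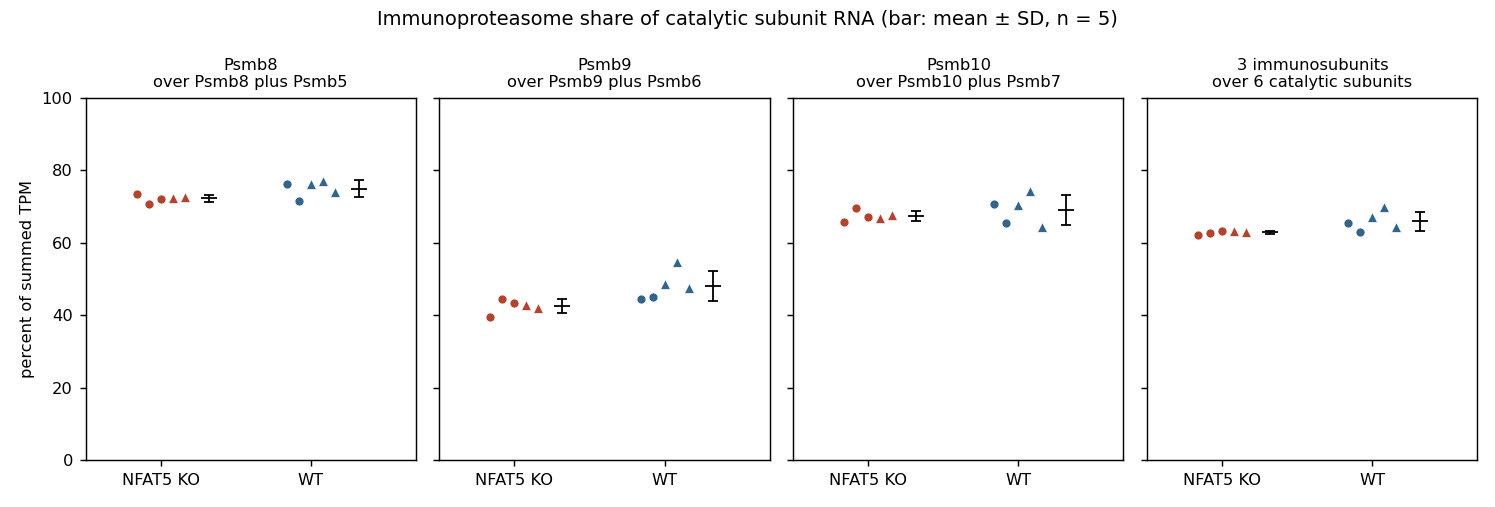
Share of each immunoproteasome subunit in the summed TPM of itself and the standard subunit it replaces, and of all 3 in all 6 catalytic subunits, in percent per library, with circles and triangles for the label prefixes 678 and 679 and a bar for the mean ± SD (n = 5). The Psmb9 share lies between 39.5 and 44.5% in NFAT5 KO libraries and between 44.6 and 54.8% in WT libraries, and the other shares overlap.

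Psmb9 and Tap1 share the start region shown above, and their values differed. Tap1, 1 chain of the peptide transporter (ENSMUSG00000037321, chromosome 17, 34187553 to 34197225 on the plus strand), had 561, 548, 549, 569 and 626 CPM in NFAT5 KO libraries, against 582, 561, 577, 603.5 and 571 CPM in WT libraries. The groups overlapped, and NFAT5 KO 679_6 was the highest of the 10. The log2 ratio was -0.02 (adjusted p = 0.887 by edgeR, SE 0.06). The TPM of Psmb9 was 0.988, 0.877, 0.927, 0.879 and 0.939 times that of Tap1 in NFAT5 KO libraries, against 1.40, 1.09, 1.19, 1.60 and 1.25 times in WT libraries. In TPM summed over all annotated transcripts, Tap1 was thus the higher of the pair in every NFAT5 KO library and Psmb9 in every WT library. Protein-coding transcripts made up 79.4% of Psmb9 and 90.7% of Tap1 in NFAT5 KO cells, and 80.9% and 89.7% in WT cells. The order depends on the transcripts summed in WT 678_4, the WT library where the ratio was closest to 1. There protein-coding transcripts made up 76.9% of 332.4 TPM for Psmb9 and 86.73% of 304 TPM for Tap1. From protein-coding transcripts alone Tap1 was thus the higher in that WT library. The annotated genes overlap by 212 bases on opposite strands, and whether reads were assigned by strand is not given in the sources used here.

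**Figure D3:**
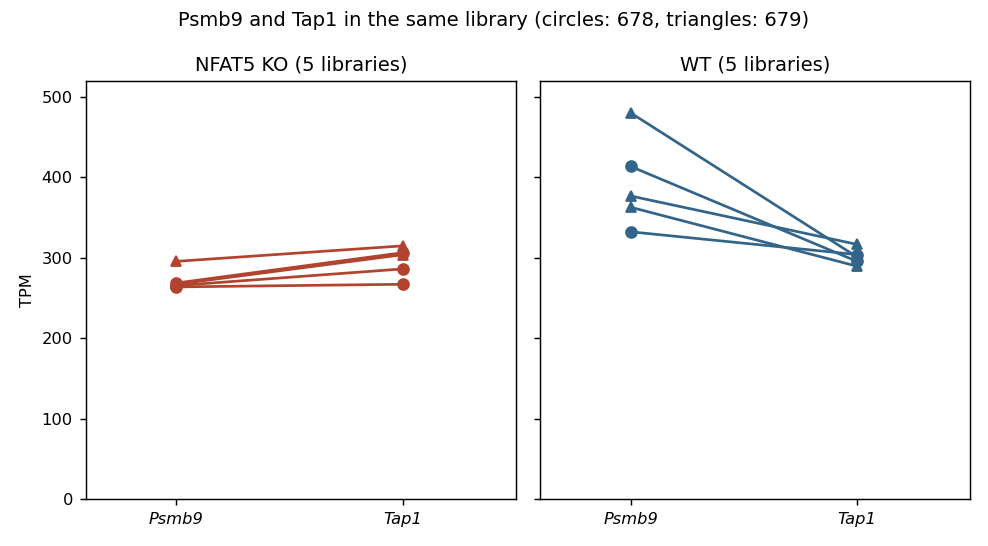
TPM of Psmb9 and Tap1, summed over all annotated transcripts and joined by a line for each library. NFAT5 KO is at the left and WT at the right, with circles and triangles for the label prefixes 678 and 679. The ratio of Psmb9 to Tap1 is 0.877 to 0.988 in NFAT5 KO libraries and 1.09 to 1.60 in WT libraries, so the lines slope up in the left panel and down in the right one.

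The PA28 activator genes had higher means in NFAT5 KO cells and did not pass. Psme1, the alpha subunit (ENSMUSG00000022216, chromosome 14, 55578123 to 55581529 on the plus strand), had 550.4, 522, 554, 568 and 581.5 CPM in NFAT5 KO libraries, against 461, 516, 485, 507 and 462 CPM in WT libraries. All NFAT5 KO libraries lay above all WT libraries, by a small margin between NFAT5 KO 678_5 and WT 678_4. The log2 ratio was 0.19 (adjusted p = 0.0900 by edgeR, SE 0.07), and no fit without a library passed. Psme2, the beta subunit (chromosome 14, 55587441 to 55591113 on the minus strand), had 618, 476, 669, 574 and 707 CPM in NFAT5 KO libraries, against 514, 598, 469, 531 and 522 CPM in WT libraries. The groups overlapped, NFAT5 KO 678_5 lying below 4 WT libraries, and the log2 ratio was 0.21 (adjusted p = 0.265 by edgeR, SE 0.11). Psme3 and Psme4, the other activators, and the chaperones Pomp and Psmg1 to Psmg4 were in a list of 8 genes of assembly and activation, of which 0 passed in either direction by edgeR. In that list Psmg1 and Psmg2, which act in early assembly of the core, had the smallest p-values, with log2 ratios of -0.18 and -0.19 (adjusted p = 0.439 and 0.453).

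The remaining transporter and loading genes did not pass the test, and their groups overlapped. Tap2, the second chain of the transporter (chromosome 17, 34203527 to 34216321 on the plus strand), stood at 481 ± 44.7 CPM in NFAT5 KO cells and 456 ± 21.6 CPM in WT cells, with a log2 ratio of 0.08 (adjusted p = 0.612 by edgeR, SE 0.08). Tapbp (chromosome 17, 33915899 to 33929292 on the plus strand) stood at 938 ± 25.7 CPM in NFAT5 KO cells and 882 ± 63.2 CPM in WT cells, with a log2 ratio of 0.09 (adjusted p = 0.471 by edgeR, SE 0.07). B2m (chromosome 2, 122147686 to 122153083 on the plus strand) had 4276, 4979, 5270, 4433 and 5135 CPM in NFAT5 KO libraries, against 4409, 4818, 3907, 4752 and 3844 CPM in WT libraries. The B2m values overlapped widely, and the log2 ratio was 0.15 (adjusted p = 0.343 by edgeR, SE 0.09).

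Nlrc5 (ENSMUSG00000074151, chromosome 8, 94434356 to 94527272 on the plus strand) was the most variable member. It had 141, 151, 167, 167 and 115 CPM in NFAT5 KO libraries, against 124, 101, 158, 41.6 and 161 CPM in WT libraries. One library, WT 679_4, lay far below the rest, and the same library was the highest of the 10 for Psmb8, Psmb9 and Psmb10. The log2 ratio was 0.34 (adjusted p = 0.501 by edgeR, SE 0.28) and 0.12 without WT 679_4. Without that library Psmb9 kept its call, while Psmb10 lost it, at a log2 ratio of -0.31 (adjusted p = 0.0857, edgeR).

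**Figure D4:**
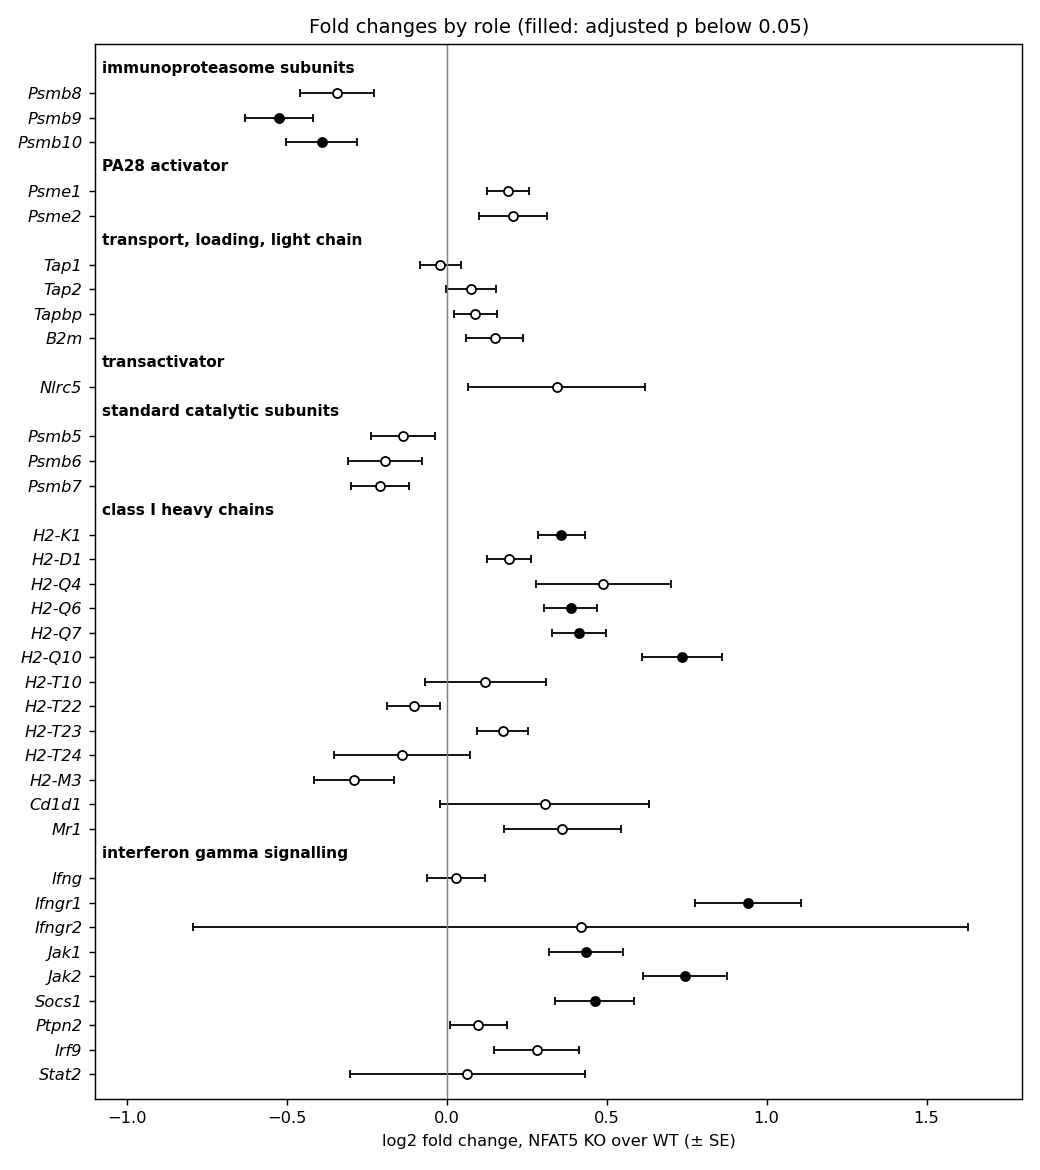
Log2 fold change of NFAT5 KO over WT with its SE for the 10 members by role and for 3 related lists, filled where the adjusted p was below 0.05. The 3 immunoproteasome subunits lie at -0.52 to -0.34, the other 7 members at -0.02 to 0.34, and the 4 filled class I heavy chains at 0.36 to 0.73.

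Levels were compared between genes per transcript length. B2m was the highest member at 7886 ± 562 TPM in NFAT5 KO cells and 7023 ± 521 TPM in WT cells (SD, n = 5 each), and ranked 4 from the top of 13081 genes by mean TPM over the 10 libraries. Nlrc5 was the lowest, at 36.0 ± 3.61 TPM in NFAT5 KO cells and 26.6 ± 11.1 TPM in WT cells, at percentile 68.0 of the tested genes. The other 8 lay between percentiles 94.5 and 99.1. In NFAT5 KO cells the order was B2m, Psme2, Psmb8, Psme1, Tapbp, Tap1, Psmb9, Psmb10, Tap2 and Nlrc5. Psmb10 was above Tap2 in 2 of 5 NFAT5 KO libraries, and Psmb8 above Psme1, and Psme1 above Tapbp, in 4 of 5. In WT cells the order was B2m, Psme2, Psmb8, Psme1, Tapbp, Psmb9, Psmb10, Tap1, Tap2 and Nlrc5. Psme2 was above Psmb8, and Psmb10 above Tap1, in 2 of 5 WT libraries, and Psme1 above Tapbp in 3 of 5. The remaining neighbours kept their order in all 5 libraries of the group.

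The deposited values are per transcript, so the make-up of each member could be compared. For Tap2 the most abundant annotated transcript was 1 with a retained intron, at 59.3 ± 4.45% of the gene's TPM in NFAT5 KO cells and 57.9 ± 4.12% in WT cells, and protein-coding transcripts made up 33.8 ± 1.95% in NFAT5 KO cells and 34.5 ± 0.937% in WT cells (SD, n = 5 each). Psmb10 transcripts were 37.7 ± 2.56% protein-coding in NFAT5 KO cells and 42.0 ± 6.16% in WT cells, and those of Psme2 54.7 ± 8.58% in NFAT5 KO cells and 55.8 ± 4.96% in WT cells. Psmb8 was 66.3 ± 0.888% protein-coding in NFAT5 KO cells and 66.3 ± 1.53% in WT cells, and Psmb9 79.4 ± 1.19% in NFAT5 KO cells and 80.9 ± 2.54% in WT cells. B2m had a single annotated transcript in the files. For every member with more than 1 transcript type the shares overlapped between the groups. Reads assigned to retained-intron transcripts enter the gene levels above.

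**Figure D5:**
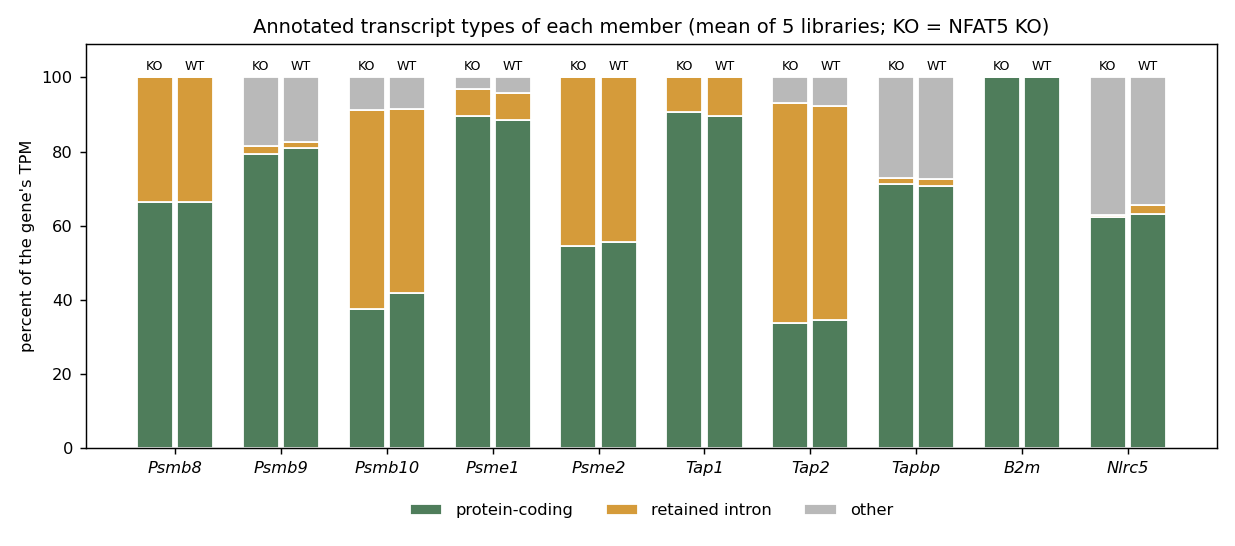
Share of each gene's TPM in transcripts annotated as protein-coding, as retained intron and as other, in percent, as means of the 5 NFAT5 KO libraries (left bar of each pair) and the 5 WT libraries (right bar). The retained-intron share is highest for Tap2, at 59.3% in NFAT5 KO cells and 57.9% in WT cells, and B2m is wholly protein-coding.

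The rest of the proteasome showed no called gene in the main fit. Of 11 other subunits of the 20S core, 0 passed in either direction by edgeR and 10 had a fold change below 0, with a list median of -0.12. NFAT5 KO 678_5 was the lowest of the 10 libraries for all 11 genes, and without it 8 had a fold change below 0 and the median was -0.05. Without NFAT5 KO 678_3, NFAT5 KO 679_6 or WT 679_3 all 11 were below 0, with medians of -0.18, -0.18 and -0.15. Psma4 and Psmb1, an alpha and a beta subunit of the core, had the smallest p-values, with log2 ratios of -0.21 (adjusted p = 0.240) and -0.19 (adjusted p = 0.295). Of 18 genes of the 19S cap, which unfolds substrates, 0 passed by edgeR and the list median was -0.07. The nearest was Psmd13, a lid subunit, at 167 ± 17.0 CPM in NFAT5 KO cells and 204 ± 12.1 CPM in WT cells (SD, n = 5 each), with a log2 ratio of -0.29 (adjusted p = 0.0550, edgeR). Psmd13 passed lower in 1 of the 10 fits without a library. It also passed lower in 4 of the 9 other alternative fits that kept all libraries. Psmd11, also of the lid, had a log2 ratio of 0.16 (adjusted p = 0.198).

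A list of 7 genes covered peptide loading and trimming in the endoplasmic reticulum, with Sec61a1 and Sec61b of the translocon. It also gave no call, 0 of 7 passing by edgeR, with a list median of 0.20. Calr, the chaperone calreticulin, stood at 947 ± 55.2 CPM in NFAT5 KO cells and 776 ± 106 CPM in WT cells (SD, n = 5 each), with a log2 ratio of 0.29 (adjusted p = 0.0791, edgeR). Sec61a1, the channel subunit of the translocon, had a log2 ratio of 0.20 (adjusted p = 0.0788, edgeR).

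The class I heavy chains, which present the peptides, were higher where they were called. Of 13 classical, non-classical and class I-like heavy chain genes, 4 passed higher and 0 lower, with a list median of 0.31. Over all genes tested 3.38% were called higher and 5.63% lower. This list and those below were chosen with earlier results of these data known, so their counts are descriptions. H2-K1, a classical heavy chain, stood at 5012 ± 336 CPM in NFAT5 KO cells and 3911 ± 310 CPM in WT cells, with a log2 ratio of 0.36 (adjusted p = 0.00900, edgeR). H2-D1, the other classical chain of this strain, stood at 6199 ± 422 CPM in NFAT5 KO cells and 5417 ± 349 CPM in WT cells, with a log2 ratio of 0.19 (adjusted p = 0.106), and did not pass. For the non-classical H2-Q7, H2-Q6 and H2-Q10 the log2 ratio was 0.41, 0.39 and 0.73 (edgeR adjusted p = 0.00915, 0.0115 and 0.00309). H2-Q10 was the scarcest of these, at 46.5 ± 3.82 CPM in NFAT5 KO cells and 27.9 ± 3.98 CPM in WT cells (SD, n = 5 each). The H2-Q10 ratio was 1.14 with an offset for mean transcript length and 1.78 from protein-coding transcripts alone, and it passed in both. These genes are close paralogs among which reads can be divided by the quantification, so the level of each is uncertain.

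Among 11 regulators of class I and immunoproteasome genes, 1 passed higher and 0 lower, with a list median of 0.05. Shares over all genes tested were 3.38% higher and 5.63% lower. Irf1, an interferon-induced transcription factor known to act on Psmb9 and Tap1, rose to 865 ± 190 CPM in NFAT5 KO cells, against 531 ± 79.0 CPM in WT cells (SD, n = 5 each). Its log2 ratio was 0.70 (adjusted p = 0.0103 by edgeR, SE 0.15), and it passed without each library in turn. Within these libraries Irf1 and Psmb9 were thus called in opposite directions.

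Of 9 genes of interferon gamma and its receptor signalling, 4 passed higher and 0 lower, with a list median of 0.42. Shares over all genes tested were 3.38% higher and 5.63% lower. Ifngr1, the ligand-binding receptor chain, rose to 895 ± 227 CPM in NFAT5 KO cells, against 466 ± 91.1 CPM in WT cells, and Jak2, the kinase bound to the receptor's second chain, to 162 ± 13.6 CPM in NFAT5 KO cells, against 97.0 ± 18.6 CPM in WT cells (SD, n = 5 each). Their log2 ratios were 0.94 (adjusted p = 0.00391) and 0.74 (adjusted p = 0.00385, edgeR). Jak1, the kinase of the first chain, and Socs1, an inhibitor of these kinases, had log2 ratios of 0.43 (adjusted p = 0.0343) and 0.46 (adjusted p = 0.0346), which held in 2 and 1 of the 10 fits without a library. Ifng itself had a log2 ratio of 0.03 (adjusted p = 0.891).

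Of 17 interferon gamma-induced genes, mostly guanylate-binding proteins and immunity-related GTPases, 16 were tested, 5 passed higher and 1 lower, with a list median of 0.29. Shares over all genes tested were 3.38% higher and 5.63% lower. Iigp1, an immunity-related GTPase, fell to 10.6 ± 3.42 CPM in NFAT5 KO cells, against 28.8 ± 5.08 CPM in WT cells (SD, n = 5 each), a log2 ratio of -1.44 (adjusted p = 0.00182, edgeR). Tgtp1 and Tgtp2, near-identical GTPases whose reads can be divided between them, had log2 ratios of 0.88 (adjusted p = 0.0104) and 0.54 (adjusted p = 0.0274). Gbp2, Irgm2 and Gbp8, of the same GTPase families, had log2 ratios of 0.40, 0.60 and 0.63 (adjusted p = 0.0389, 0.0390 and 0.0421, edgeR). Tgtp2 and Gbp2 kept their calls in 3 of the 10 fits without a library, Gbp8 in 2 and Irgm2 in 1, while Tgtp1 and Iigp1 passed in all 10. Genes of this response were thus called in both directions.

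Antigen-presenting cells express the same genes at high levels, so markers of other cell types were measured in each library. The summed level of 11 macrophage markers was 35.9 to 75.2 CPM in NFAT5 KO libraries and 69.5 to 140.7 CPM in WT libraries, against 8065 to 8521 CPM and 7380 to 8338 CPM for 8 CD8 T-cell markers in NFAT5 KO and WT libraries. The mean log2 CPM of the macrophage list was -0.34 in NFAT5 KO cells and 1.53 in WT cells (2-sided exact permutation p = 0.0397, adjusted p = 0.119 over the 9 lists), and of its 8 tested genes 0 passed higher and 1, Adgre1, lower. Summed levels of 4 class II genes were 19.6 to 59.6 CPM in NFAT5 KO libraries and 27.7 to 94.0 CPM in WT libraries (exact permutation p = 0.119). The mean of the CD8 list was 9.84 in NFAT5 KO cells and 9.69 in WT cells, and that of 5 B-cell markers -2.44 in NFAT5 KO cells and -1.77 in WT cells (exact permutation p = 0.00794 each, the smallest that arrangements of 5 against 5 libraries can give, adjusted p = 0.0357), with Cd79a and Pax5 below 1 CPM in every library. Within the CD8 list 5 of 8 genes had a log2 ratio above 0 and 3 below. Trac, Cd2 and Cd5 passed higher by edgeR, at 0.50, 0.46 and 0.29. Cd8a, Cd8b1 and Cd3g lay at -0.03, -0.12 and -0.15 and did not pass, so the higher list mean was not shared by the CD8 genes themselves. Summed melanoma markers were 0.916 to 3.14 CPM in NFAT5 KO libraries and 1.19 to 3.40 CPM in WT libraries (exact permutation p = 0.548). Of 6 dendritic-cell markers the summed level was 120 to 192 CPM in NFAT5 KO libraries and 49.96 to 147 CPM in WT libraries (exact permutation p = 0.190), and the 3 tested had log2 ratios above 0, with a median of 1.09. Most of that sum was Itgax, at 140 ± 28.2 CPM in NFAT5 KO cells and 96.0 ± 34.3 CPM in WT cells (SD, n = 5 each). Flt3, Clec9a and Siglech were below 1 CPM in every library. Means of the neutrophil list and of the list of fibroblasts with endothelium differed by -0.51 and -0.39 log2 units between NFAT5 KO and WT cells, and Cd4 by 1.58 (exact permutation p = 0.198, 0.183 and 0.286). Means of the macrophage, class II, B-cell, neutrophil, melanoma and fibroblast with endothelium lists thus lay in the direction of Psmb8, Psmb9 and Psmb10. The mean of the dendritic-cell list and Cd4 lay in the other direction. The tested genes of the dendritic-cell list were Itgax, Xcr1 and Zbtb46, so its mean is not read as a level of dendritic cells. The part of other cell types in the values of the members was not tested. In bulk libraries fewer cells that express a gene and less of its RNA per cell cannot be told apart.

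The label prefixes 678 and 679, whose meaning the labels do not give, each hold both genotypes, with 3 NFAT5 KO and 2 WT libraries under 678 and 2 NFAT5 KO and 3 WT under 679. Psmb9 had a log2 ratio of -0.48 within 678 and -0.55 within 679, Psmb10 -0.32 and -0.43, and Psmb8 -0.43 and -0.26. Psme1 had 0.15 within 678 and 0.24 within 679, and Psme2 0.07 and 0.33. The difference between the prefixes gave an adjusted p of 0.9998 for each of the 10 members (interaction term, edgeR). Neither prefix alone gave a member past the threshold by edgeR after adjustment, while at an unadjusted p below 0.05 Psmb9 passed within each.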

How the data were processed

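RNA of the 10 libraries had been quantified per transcript with Salmon 0.14.1 on GRCm38.p6 (mm10), per the submitters' processing notes. The deposited files give estimated counts and TPM, the authors' level scaled to transcript length and depth. Index, strand setting and annotation release were not given in the sources used here. Of 140919 transcripts, 140045 (99.38%) were matched to GENCODE M21 and their estimated counts summed per gene and rounded, unmatched ones holding 0.191 to 0.228% of counts. Groups came from the sample titles. Genes kept by filterByExpr were fitted for all 10 libraries with edgeR 4.0.16 (TMM scaling, robust quasi-likelihood test), and p-values were adjusted over all 13081 genes by Benjamini-Hochberg at 0.05. Levels are TMM-scaled CPM, or summed TPM between genes. Marker means were of log2 CPM (prior count 2), compared by exact permutation. Sequences are from RefSeq, GRCm38.p6. The fit was also run on counts simulated from its own means, library sizes and dispersions. Such a run cannot show how well the model describes these libraries.

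The 10 members and all lists were chosen with earlier results of these data known. Named from each list were genes past the threshold (up to 6, smallest p first), or the 2 with the smallest p where none passed. Psmb5, H2-D1 and Ifng were named after their values were seen. Alternatives covered the filter, scaling, prefix, test (DESeq2 1.42.0, limma 3.58.1), transcript length, each library left out and, chosen after seeing the data, protein-coding transcripts alone. Libraries held 22444310 to 32001285 estimated counts, and each member at least 1233 in every library.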

Additional observations from a re-analysis of the deposited data

Results flagged for a closer look

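In groups of 5, a library was picked out where its gap to the next took up most of the group's range (Dixon's 95% critical value). Of 80 groups tested over the named genes and the immunoproteasome shares, 7 were picked out, and chance alone gives about 1 in 20. Tap1 stood at 626.1 CPM in NFAT5 KO 679_6, the next NFAT5 KO library being at 568.8 CPM. Tap2 stood at 419.3 CPM in WT 679_5, below the next WT library at 461.1 CPM. Psmb6, the standard subunit replaced by Psmb9, stood at 326.3 CPM in WT 678_2, above 260.8 CPM in the next, and that WT library had the lowest Psmb9 share. Psmd11 stood at 296.9 CPM in NFAT5 KO 679_6, above 276.6 CPM. H2-Q7 stood at 1691 CPM in WT 678_4, above 1353 CPM, and Ifngr1 at 624 CPM in the same library, above 464.8 CPM. Nfat5 stood at 26.75 CPM in the library labelled NFAT5 KO 679_2, above 12.56 CPM.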

How the results depend on the processing

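Over 35 named genes and all settings, 735 values were computed, of which 614 kept their direction and side of the threshold, 107 lost it, 12 gained it and 2 reversed. The reversals were of Tap1, at 0.0249 within prefix 679 and 0.00043 by limma-voom. The number of genes called was 1893 by DESeq2's Wald test, 325 within prefix 679 and 0 within prefix 678 (edgeR), and 696 to 1276 without 1 library, the lowest without WT 678_2. The number of members called was 1 with no low-count filter, with the prefix as a term and with the offset for mean transcript length, 0 within prefix 678 and 0 within prefix 679 (edgeR), 4 by DESeq2 and 1 to 2 without 1 library. Where 1 was called it was Psmb9. The cause of these changes was not tested. Psmb8 passed lower by DESeq2 (adjusted p = 0.0414) and with library size alone (adjusted p = 0.0476, edgeR), and Psme1 passed higher by DESeq2 (adjusted p = 0.0281) and by limma-voom (adjusted p = 0.0239). Without 1 library the CD8 marker difference was 0.13 to 0.17 and the B-cell one -0.77 to -0.57, so both kept their direction. By the exact permutation test both lost their call without each NFAT5 KO library and kept it without each WT library. That test moves in coarse steps with so few libraries, so the lost calls do not show that either difference rests on 1 library. With the most abundant transcript of each gene, the Psmb9 share overlapped between the groups. No paired analysis was possible because the groups share no replicate numbers.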
